A study of Mus musculus with 8 samples.

Results

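Collagens are the proteins that give embryonic connective tissue its strength, and the genes described here are the 42 collagen chain genes measured among 18193 genes in mouse tongue buds. A gene was included when its symbol had the form of a collagen chain (Col, a type number, a and a chain number) and a probe set on the array named that gene alone. The 42 genes had 82 such probe sets, 27 genes having several. Where a gene had several, the one brightest on average over the 8 arrays stands for it, and all 42 were tested without a filter on low values.

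The tongue bud is the embryonic tissue that becomes the tongue, and it was taken at embryonic day 13.5 from mice of the C57BL/6J strain. Control embryos were Alk5 fl/fl, which carries floxed copies of the gene for the type I TGF-beta receptor (symbol Tgfbr1), and mutant embryos were Alk5 fl/fl with Wnt1-Cre, in which Cre acts in neural crest cells and their descendants. Both groups carry the floxed alleles, no group carried Wnt1-Cre without them, and cells outside the neural crest, such as muscle precursors, keep the intact receptor. Each group had 4 one-colour Affymetrix arrays, the comparison asks which transcripts of the whole bud differ when the receptor is removed from the neural crest, and nothing in the labels says that the 4 buds of a group came from separate litters, so the p-values measure the spread between these samples.

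A collagen molecule is a triple helix of 3 chains, either copies of 1 chain or a mixture of the products of several genes. Fibrillar collagens pack into the fibrils of connective tissue, and FACIT collagens sit on the surface of those fibrils. Type IV chains form the sheet of basement membranes, type VI chains form beaded microfibrils around muscle fibres and other cells, and types II, IX, X and XI are the collagens known from cartilage. TGF-beta is a known inducer of collagen genes in mesenchymal cells, and tongue mesenchyme derives largely from the neural crest.

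Upstream sequences of the chains with large changes are shown to let them be set beside the values that follow, namely the 3 main type VI chains, which fell together, Col8a1, with the largest fall by the brightest probe set of each gene, and Col9a1 and Col23a1, with the largest rises by the same sets. Each is the 250 bases before an annotated start, 5′ to 3′ on the strand of the gene, from RefSeq on build GRCm38.p6, and capitals mark CAGAC or its reverse complement GTCTG, the core letters of the Smad-binding element. The windows lie at chr10:76726045-76726294 (minus strand) for Col6a1, chr10:76623405-76623654 and chr10:76623631-76623880 (minus strand) for both starts of Col6a2, chr1:90843972-90844221 (minus strand) for Col6a3, chr16:57754738-57754987 (minus strand) for Col8a1, chr1:24177360-24177609 and chr1:24194953-24195202 (plus strand) for both starts of Col9a1, and chr11:51289670-51289919 (plus strand) for Col23a1.
Col6a1: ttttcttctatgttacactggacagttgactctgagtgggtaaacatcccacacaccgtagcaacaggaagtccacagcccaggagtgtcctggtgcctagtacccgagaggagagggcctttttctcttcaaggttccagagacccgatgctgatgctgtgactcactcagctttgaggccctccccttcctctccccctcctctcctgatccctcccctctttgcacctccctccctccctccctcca
Col6a2, entry 1: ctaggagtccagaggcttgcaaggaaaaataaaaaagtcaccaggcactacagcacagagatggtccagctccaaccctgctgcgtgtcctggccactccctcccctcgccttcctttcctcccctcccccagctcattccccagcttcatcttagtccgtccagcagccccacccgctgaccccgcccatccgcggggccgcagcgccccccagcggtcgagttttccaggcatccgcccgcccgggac
Col6a2, entry 2: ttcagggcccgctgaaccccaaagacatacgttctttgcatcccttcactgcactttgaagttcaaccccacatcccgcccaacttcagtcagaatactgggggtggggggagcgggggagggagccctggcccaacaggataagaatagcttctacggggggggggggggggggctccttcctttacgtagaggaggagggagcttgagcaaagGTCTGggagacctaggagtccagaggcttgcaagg
Col6a3: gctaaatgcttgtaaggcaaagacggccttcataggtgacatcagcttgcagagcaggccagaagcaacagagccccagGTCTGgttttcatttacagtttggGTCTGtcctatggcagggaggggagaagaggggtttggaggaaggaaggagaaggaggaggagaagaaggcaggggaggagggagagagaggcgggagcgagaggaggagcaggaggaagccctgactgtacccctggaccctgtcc
Col8a1: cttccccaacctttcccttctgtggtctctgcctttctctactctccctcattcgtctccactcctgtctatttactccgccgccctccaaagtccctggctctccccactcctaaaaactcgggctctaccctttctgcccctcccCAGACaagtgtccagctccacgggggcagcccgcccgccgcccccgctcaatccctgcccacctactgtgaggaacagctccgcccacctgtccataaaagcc
Col9a1, entry 1: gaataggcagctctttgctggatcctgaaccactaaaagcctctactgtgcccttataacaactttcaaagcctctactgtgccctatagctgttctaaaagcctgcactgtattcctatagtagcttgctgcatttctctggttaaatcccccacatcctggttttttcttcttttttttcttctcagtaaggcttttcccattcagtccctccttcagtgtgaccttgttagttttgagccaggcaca
Col9a1, entry 2: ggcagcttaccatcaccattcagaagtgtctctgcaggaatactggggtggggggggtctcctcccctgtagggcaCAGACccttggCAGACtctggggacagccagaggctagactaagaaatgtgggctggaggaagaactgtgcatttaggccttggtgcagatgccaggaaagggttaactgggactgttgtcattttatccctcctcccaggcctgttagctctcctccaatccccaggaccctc
Col23a1: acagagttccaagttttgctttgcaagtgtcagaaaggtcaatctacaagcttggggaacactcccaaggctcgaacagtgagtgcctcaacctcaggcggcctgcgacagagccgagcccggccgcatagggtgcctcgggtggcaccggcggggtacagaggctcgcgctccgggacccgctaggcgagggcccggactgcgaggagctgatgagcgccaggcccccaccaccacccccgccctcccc

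Of the 42 genes, 33 matched the RefSeq promoter table, with 36 windows, and Col1a1, Col2a1, Col4a3, Col5a2, Col9a3, Col12a1, Col14a1, Col22a1 and Col26a1 had no entry. CAGAC on either strand was in 15 of the 36 windows (41.7%) and in 42.2% of all 32841 windows of this length, so the collagen share was close to that of all genes. By the result described next, 6 of 11 windows of genes that fell held it and 2 of 6 of genes that rose. The Sp1 core GGGCGG was in 58.3% of the collagen windows against 32.7% of all windows. The collagen windows also had the higher median GC content, 59.0% against 52.4%. CCAAT was in 36.1% against 33.9%, and TATAAA in 13.9% against 12.4%. These matches are descriptions of letters and were not tested.

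Among the collagen genes 14 fell and 5 rose in the mutants, counting a gene as changed at an adjusted p under 0.05 in limma, adjusted over all genes by Benjamini-Hochberg. Over all 18193 genes 5.52% were lower and 4.20% higher by the same rule, 9.72% in all. In 15 collagen genes all mutants lay below all controls (8.87% of all genes) and in 6 all lay above (8.92% of all genes). The median log2 change of the collagen genes was −0.09, beside −0.01 over all genes. A fall of at least 1.5-fold was shown by 9 collagen genes (1.83% of all genes) and such a rise by 3 (0.682% of all genes). Of the falls 4 were fibrillar, 3 of type VI, 4 FACIT, 2 of type VIII and 1, Col9a3, of the cartilage class, and no type IV chain passed in either direction. Without any 1 array 12 to 14 genes fell. The number that rose was 4 without mutant 1 and 3 without any other single array, and the genes concerned, Col3a1 and Col25a1, are described below with their limits.

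**Figure D1:**
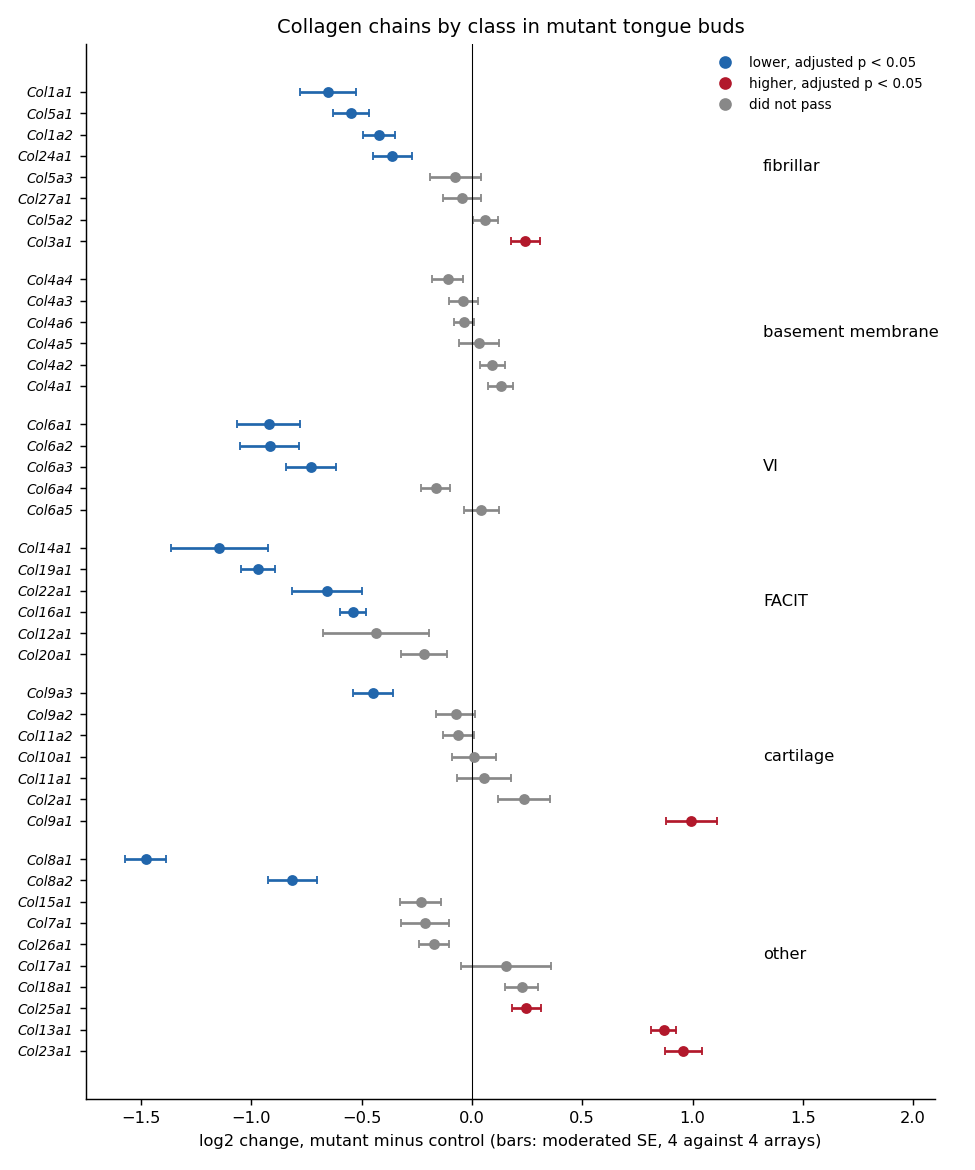
Log2 change of each of the 42 collagen genes, mutant minus control, grouped by class, with the moderated standard error as bar (4 arrays against 4) and colour showing the limma call at an adjusted p under 0.05. The type VI chains Col6a1, Col6a2 and Col6a3 and the chains of the FACIT class, which leaves out collagen IX, lie left of 0. All 6 type IV chains lie within −0.11 to 0.13, and Col9a1, Col23a1 and Col13a1 lie farthest right.

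Array medians were 5.96 to 6.01 on the log2 scale, and the first principal component, with 45.2% of the variance, parted mutants from controls. Control 3 stood apart from the other 7 arrays in Y-linked signal, at 3.09 (log2, averaged over Kdm5d, Uty and Eif2s3y) where the rest were at 8.44 to 8.73. Markers of the tissue were present: the array means of the muscle markers lay between 10.43 and 11.38, of the epithelial markers between 10.10 and 10.69 and of the neural crest mesenchyme markers between 9.45 and 9.78. In a bulk sample, fewer cells of a type and less RNA per cell cannot be told apart, and several marker lists moved on these arrays. Muscle markers fell in 7 of 10 cases, with array means of 11.13 to 11.38 in controls and 10.43 to 10.75 in mutants, and tendon markers in 4 of 6, with 7.62 to 7.86 and 7.08 to 7.35. The tendon markers that fell were Scx, Thbs4, Egr1 and Egr2. Tnmd (−0.52, adjusted p = 0.19) and Mkx (0.25, adjusted p = 0.378) did not pass in limma. Egr2 and Tnmd had both group means below the median of all probe sets. Macrophage markers fell in 3 of 9 (7.60 to 7.81 and 7.06 to 7.66), Schwann and glial markers in 2 of 4 (8.60 to 8.97 and 8.20 to 8.57), smooth muscle and pericyte markers in 2 of 7 (8.49 to 8.81 and 8.19 to 8.63) and epithelial markers in 1 of 8 (10.42 to 10.69 and 10.10 to 10.60). Endothelial markers rose in 3 of 8 (7.80 to 7.88 and 8.02 to 8.28) and neural crest mesenchyme markers in 1 of 7 (9.45 to 9.66 and 9.67 to 9.78). Among bone markers Dmp1 fell, 1 of 5, with array means of 5.45 to 6.15 and 5.38 to 5.76. Over all genes 5.52% were lower and 4.20% higher by the same rule. The part of the marker lists in the collagen results was not tested.

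In collagen VI the falls were shared: Col6a1, Col6a2 and Col6a3, the chains of its common trimer, all fell, and the 2 further chains measured did not pass. Col6a1 (probe set 1448590_at), which with Col6a2 forms the short-chain part of the trimer, read 9.88, 10.23, 9.99 and 10.20 in controls, in the order of their numbers, and 9.46, 9.35, 8.85 and 8.95 in mutants. From 10.07 ± 0.17 in controls to 9.15 ± 0.30 in mutants (SD, n = 4 each), it changed by −0.92 on the log2 scale (SE 0.143, adjusted p = 0.00406), so mutants were 1.89-fold lower and the groups did not overlap. Col6a2 (probe set 1452250_a_at) read 11.50, 11.74, 11.58 and 11.82 in controls and 11.00, 10.99, 10.52 and 10.48 in mutants. Its log2 change was −0.92 (SE 0.134, adjusted p = 0.00315), and its second probe set, also in the table of all probe sets, changed by −0.79. Mutants 3 and 4 were the lowest arrays for both of these chains.

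Col6a3 (probe set 1424131_at), the long chain that gives the microfibril most of its globular domains, read 11.50, 11.64, 11.29 and 11.71 in controls and 10.80, 11.06, 10.77 and 10.60 in mutants. Its log2 change was −0.73 (SE 0.113, adjusted p = 0.00405), and every mutant array lay below every control array. The calls of Col6a1, Col6a2 and Col6a3 held in each alternative in which their probe sets were kept. The alternative chains Col6a4 and Col6a5, with both group means below the median of all probe sets, changed by −0.16 (adjusted p = 0.166) and 0.04 (adjusted p = 0.801). The class median was −0.73. These falls stand beside falls of 7 of 10 muscle and 4 of 6 tendon markers on the same arrays. Of 7 neural crest mesenchyme markers 0 fell and 1 rose. Of all genes 5.52% were lower and 4.20% higher by the same rule. The part of any of these cells in the collagen VI falls was not tested.

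The fibrillar collagens did not move as 1 block. Of 8 measured genes 4 fell and 1 rose, with a class median of −0.22: both chains of collagen I and Col5a1 fell, while Col3a1 was slightly higher. Col1a1 (probe set 1455494_at), the chain present in 2 copies in each collagen I molecule, read 10.53, 10.30, 10.14 and 10.35 in controls and 9.67, 9.95, 9.76 and 9.34 in mutants. The log2 change was −0.65 (SE 0.127, adjusted p = 0.0117), which is 1.57-fold lower without overlap. Its other probe set changed by −0.68. Without variance moderation Col1a1 did not pass (adjusted p = 0.0595).

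Col1a2 (probe set 1450857_a_at), the partner chain of collagen I, read 14.00, 14.00, 13.71 and 13.80 in controls and 13.42, 13.44, 13.51 and 13.47 in mutants. It changed by −0.42 (SE 0.0725, adjusted p = 0.00659), with the 4 mutants close together. Col5a1 (probe set 1416740_at), a chain of the collagen V that starts the assembly of collagen I fibrils, read 11.32, 11.45, 11.39 and 11.42 in controls and 11.00, 10.94, 10.84 and 10.62 in mutants. It changed by −0.55 (SE 0.0814, adjusted p = 0.00334). Its other probe sets changed by −0.36, which passed over all probe sets, and by −0.07 (adjusted p = 0.68), and the mean of its sets by −0.33 (adjusted p = 0.0187). The other sets of Col1a2 changed by −0.52, which also passed, and −0.04. The calls of Col1a2 and Col5a1 held in every alternative run.

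Col3a1, whose product shares fibrils with collagen I in soft tissue, differed the other way. It (probe set 1427883_a_at) read 13.51, 13.71, 13.64 and 13.62 in controls and 13.91, 13.97, 13.77 and 13.79 in mutants. This is a 1.18-fold rise, 0.24 in log2 (SE 0.0653, adjusted p = 0.0476). The groups did not overlap, but the call was lost without any 1 of the 8 arrays (0.21 to 0.27, adjusted p up to 0.127). Its dimmer probe set changed by 0.69 and passed over all probe sets (adjusted p = 0.00589), and the mean of both changed by 0.46 (adjusted p = 0.00819).

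Among the remaining fibrillar genes Col24a1 (probe set 1453418_at), a minor fibrillar chain, read 5.86, 5.76, 5.68 and 5.50 in controls and 5.34, 5.48, 5.37 and 5.17 in mutants. It changed by −0.36 (adjusted p = 0.0344) with both means below the median of all probe sets. Its call was lost without control 1, 2 or 3 or mutant 1, 3 or 4 (−0.37 to −0.30). Col5a2, the partner of Col5a1 in collagen V, changed by 0.06 (adjusted p = 0.571), Col5a3 by −0.08 (adjusted p = 0.748) and Col27a1, a fibrillar chain of cartilage, by −0.04 (adjusted p = 0.808). The other probe set of Col5a2 changed by 0.28 and did not pass over all probe sets (adjusted p = 0.144).

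**Figure D2:**
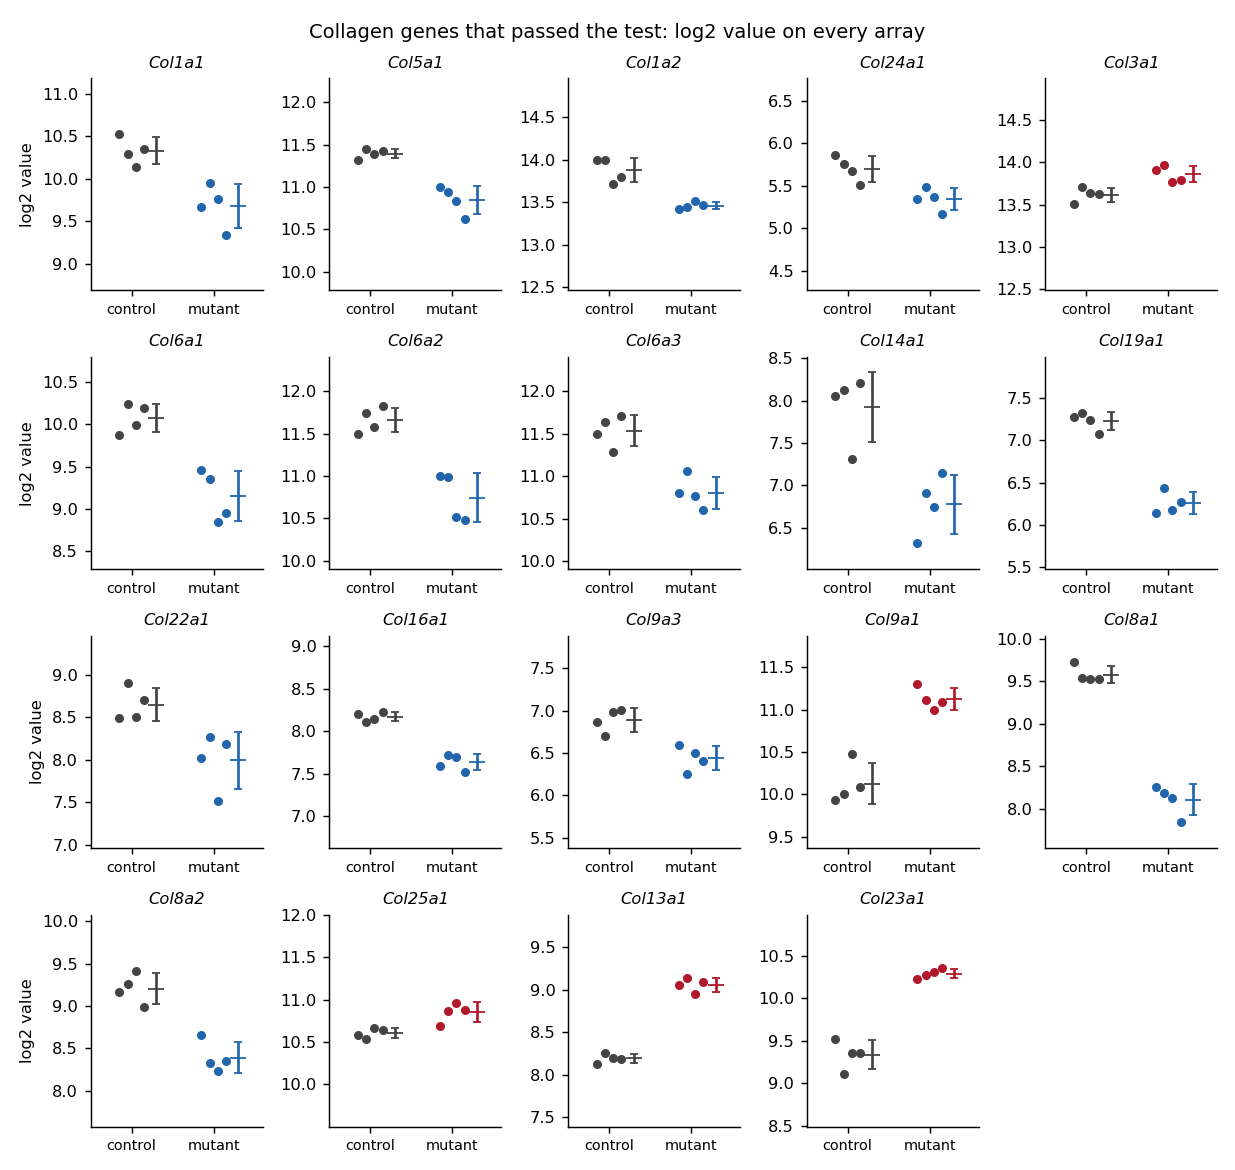
Log2 value on each array for the 19 collagen genes that passed, with 4 controls (grey) and 4 mutants (blue where lower, red where higher), and the mean ± SD beside the points. Every panel spans the same length of the log2 scale, and in each the 4 mutant points lie on one side of the 4 control points.

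The FACIT collagens of this class all had negative log2 changes, from −1.14 to −0.22, and 4 of the 6 fell, with a class median of −0.60. Collagen IX, FACIT by structure, was counted with the cartilage class. There Col9a1 rose by 1.00, Col9a3 fell (−0.45) and Col9a2 did not pass (−0.07). Col19a1 (probe set 1456953_at), a FACIT collagen known from embryonic muscle, read 7.27, 7.32, 7.23 and 7.08 in controls and 6.14, 6.43, 6.18 and 6.28 in mutants. It changed by −0.97 (SE 0.0779, adjusted p = 0.000169), and its other probe sets by −1.31, which passed, and −0.07. Col16a1 (probe set 1427986_a_at), a collagen that associates with small fibrils, read 8.21, 8.11, 8.15 and 8.22 in controls and 7.59, 7.72, 7.70 and 7.52 in mutants. It changed by −0.54 (SE 0.0591, adjusted p = 0.00079), and the spread within each group was small beside the gap between them.

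Col14a1, a fibril-surface collagen of tendon and muscle connective tissue, fell with a wide spread. It (probe set 1427168_a_at) read 8.05, 8.12, 7.31 and 8.20 in controls and 6.32, 6.91, 6.74 and 7.14 in mutants, a log2 change of −1.14 (SE 0.219, adjusted p = 0.0109). Control 3 lay well below the other controls and close to mutant 4. The probe set used carries the suffix _a_at, and with such sets left out Col14a1 changed by −0.39 and did not pass (adjusted p = 0.0803). The mean of all its sets changed by −0.50 (adjusted p = 0.0474). Without variance moderation Col14a1 did not pass (adjusted p = 0.0627).

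Col22a1 (probe set 1453084_s_at), a collagen of the myotendinous junction, read 8.50, 8.90, 8.51 and 8.70 in controls and 8.02, 8.27, 7.52 and 8.18 in mutants, a log2 change of −0.66 (SE 0.16, adjusted p = 0.0321). It no longer passed in the absence of control 2 (−0.57), control 4 (−0.64) or mutant 1 (−0.66). The call was also lost without variance moderation (adjusted p = 0.11) and without controls 1 and 3 together (adjusted p = 0.0564). The mean of all its sets changed by −0.38 (adjusted p = 0.0354). Col12a1, close in structure to Col14a1, differed by −0.43 with overlapping groups (adjusted p = 0.318), and Col20a1 by −0.22 (adjusted p = 0.248). With the mean of all its probe sets Col20a1 passed at −0.33 (adjusted p = 0.0244). The FACIT falls stand beside the same muscle, tendon and neural crest mesenchyme marker counts as those of collagen VI.

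Type IV collagen showed no detected change. Col4a1 and Col4a2, the chains of nearly all basement membranes, changed by 0.13 (SE 0.0583, adjusted p = 0.213) and 0.09 (SE 0.0565, adjusted p = 0.362). Col4a1 read 11.95, 11.86, 11.75 and 11.81 in controls and 11.90, 11.98, 12.05 and 11.97 in mutants, so the groups overlapped. The other 4 chains, which make up basement membranes of more restricted distribution, changed by −0.11 (Col4a4), −0.04 (Col4a3), −0.04 (Col4a6) and 0.03 (Col4a5), with adjusted p from 0.397 to 0.865. Col4a3, Col4a4 and Col4a6 had both group means below the median of all probe sets. In limma 0 of the 6 chains passed, also in each alternative in which they were tested (Col4a3, Col4a4 and Col4a6 were not among the genes above the median), and 0 had an unadjusted p under 0.05. The smallest unadjusted p in limma, that of Col4a1, was 0.0513, close to that line. Endothelial markers, of cells that make basement membrane, rose in 3 of 8 cases on the same arrays.

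The cartilage collagens split, with 1 of 7 rising and 1 falling. Col9a1 (probe set 1428571_at), a chain of the fibril-surface collagen IX, read 9.94, 10.01, 10.48 and 10.09 in controls and 11.30, 11.11, 11.00 and 11.09 in mutants. It rose by 1.00 on the log2 scale (SE 0.117, adjusted p = 0.00109), or 1.99-fold, and its second probe set changed by 0.77. The other chains of collagen IX did not follow. Col9a3 (probe set 1460734_at) read 6.87, 6.70, 6.99 and 7.00 in controls and 6.60, 6.26, 6.50 and 6.41 in mutants, a log2 change of −0.45 (SE 0.0903, adjusted p = 0.0139), and Col9a2 changed by −0.07 (adjusted p = 0.675).

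The call of Col9a3 was lost with its most variable probe set (−0.85, adjusted p = 0.114), without variance moderation (adjusted p = 0.0562) and without controls 1 and 3 together (−0.41, adjusted p = 0.0868). Col2a1, the main fibrillar collagen of cartilage, differed by 0.24 with overlapping groups (adjusted p = 0.261), and Col11a1, Col11a2 and Col10a1, the last a marker of hypertrophic cartilage, by 0.05, −0.06 and 0.01. Of 12 cartilage markers 0 passed in limma (2 at an unadjusted p under 0.05), and 8 had both group means below the median of all probe sets, among them the proteoglycan gene Acan at 5.15 and 5.20. Their array means ran from 5.60 to 5.87 in controls and from 5.62 to 5.70 in mutants. The part of cartilage cells in the rise of Col9a1 was not tested.

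The remaining 10 genes hold 2 of the falls and 3 of the 5 rises. Col8a1 and Col8a2, short chains that form the hexagonal network of collagen VIII in vessel walls and the cornea, both fell. Col8a1 (probe set 1455627_at) read 9.73, 9.54, 9.53 and 9.53 in controls and 8.26, 8.18, 8.13 and 7.84 in mutants, which is 2.79-fold lower and −1.48 in log2 (SE 0.0929, adjusted p = 4.96e-05). Col8a2 (probe set 1434667_at) read 9.17, 9.26, 9.41 and 8.98 in controls and 8.65, 8.33, 8.24 and 8.35 in mutants, a log2 change of −0.81 (SE 0.11, adjusted p = 0.00214). The gap between groups was larger than the range within either group for Col8a1. Its other probe sets changed by −0.79 and −0.35, of which the first passed over all probe sets, and the mean of its sets by −0.87. Both calls held in every alternative run. Smooth muscle and pericyte markers fell in 2 of 7 cases on the same arrays, namely Acta2 (−0.26) and Tagln (−0.88). Myh11, Cnn1, Rgs5, Pdgfrb and Kcnj8 did not pass, with log2 changes from −0.79 to 0.09. Myh11 and Cnn1 had both group means below the median of all probe sets. Endothelial markers, also of vessels, went the other way, with 3 of 8 rising and 0 falling. Of all genes 5.52% were lower and 4.20% higher by the same rule. The part of vessel cells in the falls of Col8a1 and Col8a2 was not tested.

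Of the 4 transmembrane collagens, which are anchored in the plasma membrane with the helix outside the cell, 3 rose, a grouping made after the values were seen. Col13a1 (probe set 1422866_at), known from cell adhesions and the neuromuscular junction, read 8.13, 8.26, 8.19 and 8.18 in controls and 9.06, 9.14, 8.95 and 9.09 in mutants, a log2 change of 0.87 (SE 0.0565, adjusted p = 5.33e-05). Col23a1 (probe set 1440911_at) read 9.52, 9.11, 9.36 and 9.36 in controls and 10.23, 10.27, 10.32 and 10.36 in mutants, a log2 change of 0.96 (SE 0.0828, adjusted p = 0.000245). Both genes were higher by more than the whole spread within either group. The 3 probe sets of Col23a1 changed by 0.96, 0.68 and 1.29, the last of which, the most variable, did not pass (adjusted p = 0.109 with 1 such set per gene).

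Col25a1 (probe set 1438540_at), a transmembrane collagen of neurons and developing muscle, read 10.59, 10.53, 10.67 and 10.64 in controls and 10.69, 10.87, 10.97 and 10.88 in mutants. Its log2 change was 0.25 (SE 0.0657, adjusted p = 0.046), and the call was lost without any 1 array other than mutant 1 (0.21 to 0.30 over the 8 arrays). Its other probe set changed by 0.02, and the mean of the sets by 0.13 (adjusted p = 0.21). Col17a1, the transmembrane collagen of epithelial hemidesmosomes, differed by 0.15 with SDs of 0.36 in each group (adjusted p = 0.706), beside epithelial markers of which 1 of 8 fell. The multiplexins Col18a1, the source of endostatin, and Col15a1, both of basement membrane zones, changed by 0.23 (adjusted p = 0.0999) and −0.23 (adjusted p = 0.163). Col7a1, of the anchoring fibrils of skin, changed by −0.21 (adjusted p = 0.273) and Col26a1 by −0.17 (adjusted p = 0.155). The mutants of Col18a1 all lay above and those of Col26a1 all below the controls, a separation seen in 17.8% of all genes.

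Chains that share a molecule or a fibril were compared directly in 8 pairs, by taking the log2 difference of the 2 chains on each array and comparing the groups by exact permutation of the arrays (two-sided). The absolute difference of 2 probe sets has no meaning, so values are given relative to the control mean of each pair. For Col5a1 and Col5a2, partners in collagen V, the controls read −0.11, 0.10, 0.02 and −0.01 and the mutants −0.47, −0.63, −0.60 and −0.73. For Col1a1 and Col3a1 the controls read 0.31, −0.12, −0.20 and 0.02 and the mutants −0.95, −0.74, −0.72 and −1.16. For Col9a1 and Col9a2 the controls read −0.43, 0.10, 0.36 and −0.03 and the mutants 1.19, 1.04, 0.92 and 1.12.

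In these 3 pairs the groups did not overlap and exact permutation gave p = 0.0286. No split of 4 against 4 can go below this value, which adjusts to 0.0762 over the 8 pairs, so none passed after adjustment. With 3 of 8 pairs at this lowest value an adjusted p under 0.05 was out of reach, so the adjustment cannot decide these pairs. In limma Col5a1 fell while Col5a2 did not pass, and this difference in call alone does not show that the chains differ. The changes of the difference were −0.61, −0.89 and 1.07 on the log2 scale for the 3 pairs in that order. For Col6a1 and Col6a2 the change was −0.01, with a control SD of 0.05 and a mutant SD of 0.07 (exact permutation p = 0.914). With the mean of all probe sets it was −0.07. For Col4a1 and Col4a2 the change was 0.04 (exact permutation p = 0.714), for Col6a1 and Col6a3 −0.19 (0.2), for Col1a1 and Col1a2 −0.23 (0.143) and for Col12a1 and Col14a1 0.71 with SDs of 0.70 and 0.66 (0.2). The last value was 0.36 with the mean of all probe sets and −0.05 without _x_at, _s_at and _a_at sets.

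**Figure D3:**
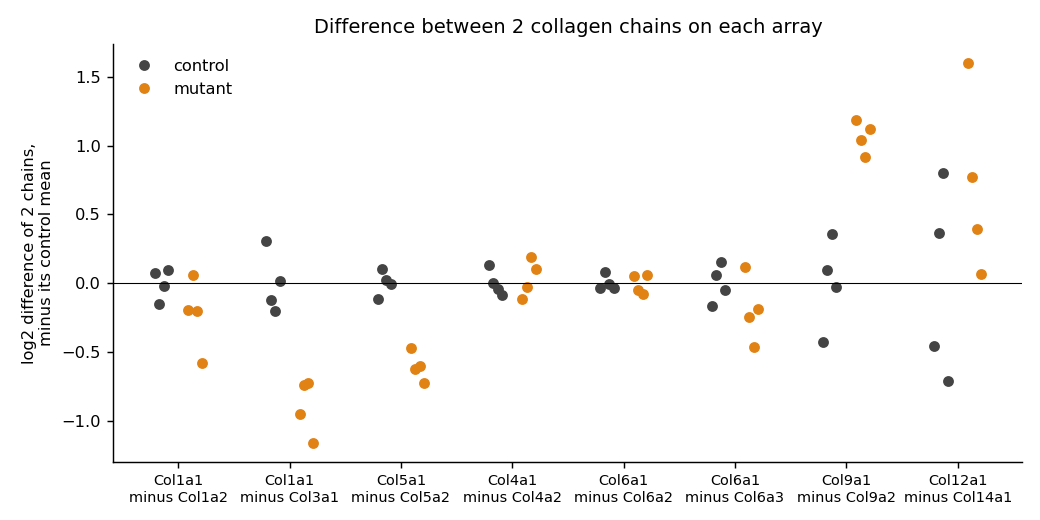
Log2 difference between 2 collagen chains on each of the 8 arrays for 8 chain pairs, relative to the mean of the 4 controls (grey; mutants orange). Mutants lie apart from controls for Col1a1 against Col3a1, Col5a1 against Col5a2 and Col9a1 against Col9a2, while Col6a1 against Col6a2 stays within −0.08 to 0.08 on all arrays.

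Fitted over all 34945 probe sets that name 1 gene, 18 of the 82 collagen probe sets were lower and 6 higher, where 3.25% of all such sets were lower and 2.69% higher. No gene had sets called in opposite directions. Of the 40 sets that were not the brightest of their gene, 6 were lower and 3 higher, and 17 had both group means below the median of all probe sets. Among genes given by their brightest set, 10 of 42 had both group means below that median, and of these Col24a1 alone passed. Col3a1, Col22a1, Col24a1 and Col25a1 passed in the fit of 1 set per gene, and their brightest sets did not pass over all probe sets (adjusted p = 0.0725, 0.0501, 0.0539 and 0.0706).

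**Figure D4:**
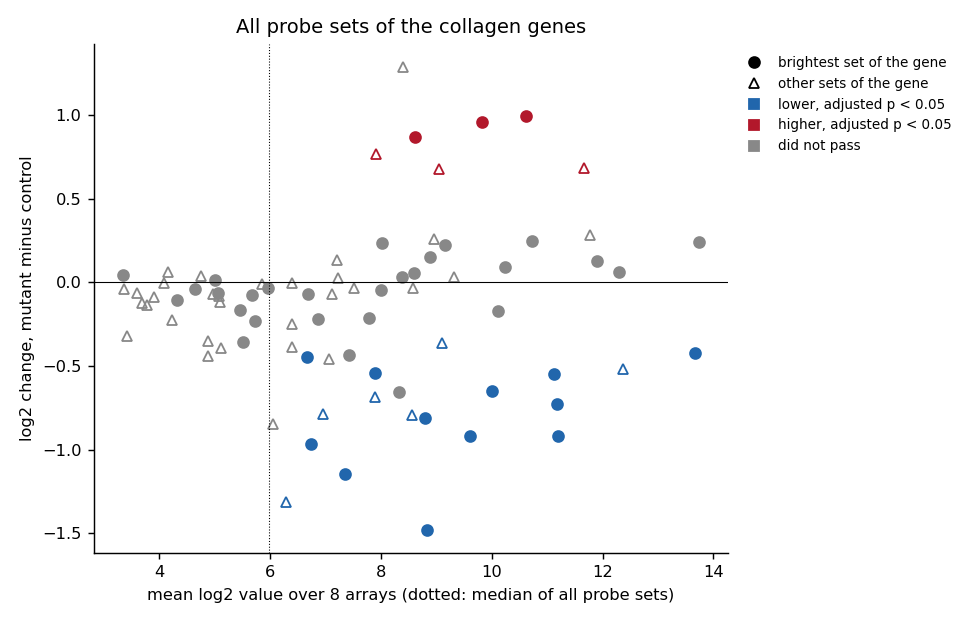
Log2 change against mean log2 value over the 8 arrays for all 82 probe sets of the collagen genes, with filled circles for the brightest set of each gene, open triangles for the 40 others and colour for the limma call over all probe sets. Sets called lower or higher lie to the right of the dotted line at 5.99, the median of all probe sets.

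Genes that fold, modify, cut or cross-link collagen were also listed. Of 27 measured, 4 fell and 2 rose, where 5.52% of all genes were lower and 4.20% higher. Their median was −0.15 beside −0.01 over all genes. P4ha3, a catalytic subunit of the prolyl 4-hydroxylase that stabilises the triple helix, changed by −0.34 (adjusted p = 0.00437), the lysyl hydroxylase gene Plod1 by −0.33 (adjusted p = 0.0148) and P3h3, of the prolyl 3-hydroxylase family, by −0.32 (adjusted p = 0.0272). Adamts3, which removes the amino-terminal propeptide of procollagen, rose by 0.85 on the log2 scale, from 5.99 ± 0.27 to 6.84 ± 0.30 (SD, n = 4 each; adjusted p = 0.0119), and did not pass as the mean of its probe sets (0.34, adjusted p = 0.0534). Adamts3 also did not pass without variance moderation (adjusted p = 0.0635), nor Plod1 without controls 1 and 3 together (adjusted p = 0.0578). The call of P3h3 was lost without control 1 or 2 or any 1 mutant (−0.38 to −0.27 over the 8 fits). It was also lost with the replicate block, without variance moderation and without controls 1 and 3 together. Of these enzymes 2 fell when control 1, control 2, mutant 2, mutant 3 or mutant 4 was left out, and 1 rose when control 2, control 3 or any 1 mutant was.

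Of 12 measured genes of collagen receptors 3 fell and 1 rose, with a median of −0.12, where 5.52% of all genes were lower and 4.20% higher. Antxr1, a membrane receptor that binds collagens I and VI, read 11.56, 11.52, 11.34 and 11.53 in controls and 10.98, 10.93, 10.87 and 10.98 in mutants, a log2 change of −0.55 (adjusted p = 0.0008) whose call held in every alternative run. Cspg4, the NG2 proteoglycan that binds collagen VI and marks pericytes, changed by −0.46 (adjusted p = 0.0158), with its call lost without control 2 (−0.43). The number of receptors that fell was 1 in the absence of control 2 and 2 in the absence of any other array, and the riser no longer passed when control 2, control 4 or any of mutants 1 to 3 was left out.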

How the data were processed

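Total RNA of 8 tongue buds was labelled as biotin cRNA and hybridised to Affymetrix arrays, per the labels' protocols. Each probe set has 1 deposited value per array, on the log2 scale. RMA is named in the submitters' processing notes; no version or setting is given there. RMA aligns the arrays, so a shift common to most genes is removed.

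Of 45101 probe sets, 34945 named 1 gene in the platform annotation, 932 named several, and 64 were controls. All 42 collagen genes matched RefSeq (GRCm38.p6) by identifier and symbol. No build is named for the arrays, and the coordinates of upstream windows and the gene order are those of RefSeq on that build. limma 3.58.1 in R 4.3.3 (lmFit, eBayes, two-sided) compared 4 mutants with 4 controls over 18193 genes, with no covariate. The procedure was tested on simulated data. No call of detection was used, and the number of arrays limits precision.

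Members, classes, lists and tests were chosen with earlier results of these data known. Named were all collagen genes, the 4 processing and 2 receptor genes with the smallest p, and markers where a result turns on them. Alternatives covered the replicate block, normalization, dim probe sets, choice of probe set, the variance model, array weights, class definition and leaving out arrays.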

Additional observations from a re-analysis of the deposited data

Results flagged for a closer look

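In 5 of the 84 groups of 4 arrays (42 genes in 2 groups) 1 array lay far from the other 3 by Dixon's test, where chance gives about 1 in 20 groups. Col14a1 read 7.31 on control 3 against 8.05 to 8.20 on the other controls. Col17a1 read 8.28 on control 3 against 8.93 to 9.06. Col8a1 read 9.73 on control 1 against 9.53 to 9.54. Col11a1 read 8.77 on mutant 3 against 8.57 to 8.59. Col7a1 read 7.34 on mutant 1 against 7.76 to 7.83.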

How the results depend on the processing

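Of the 19 called collagen genes 11 kept their call in every alternative in which they were tested (9 lower, 2 higher), Col6a2 and Col16a1 being absent without _x_at, _s_at and _a_at sets, and no value of a called gene reversed. The count of 14 lower was 9 without variance moderation, where fibrillar genes lower were 2, FACIT genes 2 and cartilage genes 0. The count of 5 higher was 3, and that of fibrillar genes higher 0, with repeated quantile normalization, without variance moderation and without controls 1 and 3. It was also 3 with the most variable probe set, where 1 other collagen rose and 0 cartilage genes fell. Without _x_at, _s_at and _a_at sets 2 FACIT genes fell. Without controls 1 and 3, 0 cartilage genes fell. With cartilage members in their structural class, collagen IX as FACIT, 1 FACIT gene rose. Same-numbered arrays did not deviate together over all genes (correlations −0.40 to 0.02), and no pairing was used in the main fit. The labels do not say whether litters were shared. These correlations cannot decide it, because the second principal component ran roughly with array number, in opposite directions in the 2 groups. With the replicate block 14 fell and 3 rose (0 fibrillar), and 1 processing gene and 0 receptor genes rose. Without 1 array, 12 to 14 collagen genes fell and 3 to 4 rose, with 0 to 0 fibrillar genes rising. Processing genes falling were then 2 to 4 and rising 1 to 2, and receptor genes falling 1 to 2 and rising 0 to 1. Processing genes falling were 2 without variance moderation and 1 without controls 1 and 3, and those rising were 1 with the mean of probe sets, with the most variable set and without controls 1 and 3, and 0 without variance moderation. Receptor genes rising were 0 with the most variable set, without variance moderation and without controls 1 and 3, where 1 fell. Over all 18193 genes, 1004 lower and 764 higher became 637 and 329 with the replicate block, and 636 and 602 without variance moderation. Without controls 1 and 3 they were 737 and 481. With arrays centred on their median they were 921 and 953, and the collagen counts stayed at 14 and 5. Without 1 array the lower count was 687 to 960 and the higher 428 to 623. The cause was not tested. Changes of probe sets below the median of 5.99 are limited by signal over background.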

Other observations

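Several collagen genes are direct neighbours in the GRCm38.p6 annotation, with 0 protein-coding genes between them. Col9a1 and Col19a1 are such a pair, and they moved in opposite directions, by 1.00 and −0.97 on the log2 scale. Col6a2 and Col6a1, by contrast, both fell, each by 0.92 on the log2 scale. Col3a1 and Col5a2 changed by 0.24 and 0.06, of which the first passed in limma and the second did not. The pairs of type IV genes, Col4a1 with Col4a2, Col4a3 with Col4a4 and Col4a5 with Col4a6, held no gene that passed, and the same was true of Col6a4 with Col6a5. The relation between position and direction was not tested.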
